A study of Mus musculus with 22 samples.

Results

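The interferon-stimulated genes described here are 42 mouse genes that cells turn on after interferon reaches its receptor, followed in the soleus muscle across 4 genotype and treatment groups. They were chosen by name with the T3 and genotype differences of these same counts already known, and which of those values guided the choice is not recorded, so their counts and fold changes are given as a description. Each of the 42 symbols matched 1 row of the deposited table of 55487 genes. The filter on low counts left 15082 genes, among them 40 of the 42. Oas3, with 69 counts in all 22 libraries together, and Mx1, with 44, did not pass it and have no test.

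Interferons are secreted signals of antiviral defence. The type I interferons bind the receptor of Ifnar1 and Ifnar2, whose kinases activate a complex that holds Stat2 and Irf9 and binds a DNA element called the interferon-stimulated response element (ISRE). Interferon gamma binds Ifngr1 and Ifngr2, signals through Jak1 and Jak2, and acts on a DNA element called the gamma-activated site (GAS). The genes induced in this way sense viral nucleic acid, block its translation, restrict virus assembly or attack vacuoles that hold pathogens, and in muscle they are known as the genes raised in dermatomyositis.

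The soleus is a lower-leg muscle with many slow fibres. Poly-A RNA came from male mice labelled WT or TRa1 KO, a knockout for thyroid hormone receptor alpha 1, and treated with vehicle or with T3, the thyroid hormone triiodothyronine. The groups held 5 WT vehicle, 6 WT T3, 4 KO vehicle and 7 KO T3 libraries, numbered here within each group in the order of their records, which pairs nothing. The sources used here do not give strain, age, the dose, route and length of treatment, or whether the knockout covers all tissues. Nothing in the labels ties a library to an animal of its own, and the p-values therefore reflect only how far these samples spread, which may be technical.

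Total counts ran from 14542548 to 75766782 per library. Levels are given as CPM, counts scaled to library size. The slow-fibre markers, 6 genes such as Myh7 and Tnni1, summed to between 10516 and 38603 CPM, so every library holds muscle RNA. Thra, the gene of the targeted receptor, ranged from 70.8 to 90.6 CPM in WT vehicle, 44.2 to 53.6 in KO vehicle, 19.3 to 58.9 in WT T3 and 21.2 to 39.8 in KO T3, and counts per gene do not show a deleted exon. Several libraries stand apart for these genes. KO vehicle replicate 3 held 982 CPM of erythroid markers (globin and related genes), WT T3 replicate 5 held 333 CPM, and all others held at most 298 CPM. Mitochondrial transcripts took 11.2% of the counts of WT T3 replicate 5 and 13.2 to 29.5% of the others.

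The DNA in front of part of these genes holds a match to the core of the ISRE. RefSeq promoter windows of build GRCm38.p6, from 250 bases before to 50 after a start site, were found for 31 of the 42 members. Both strands were searched for the ISRE core, which is GAAA, any 2 bases and GAAA (TTTC, any 2 bases and TTTC on the other strand), and for the GAS core TTCNNNGAA, and matches could overlap. The ISRE core stood in a window of 17 of 31 members (54.8%), against 3.99% of 27025 genes, or 51.4% of 35 windows against 3.44% of 32851. The GAS core stood in 7 of 31 (22.6%), against 9.55% of genes and 8.30% of windows. The stretches below end before the gene body and read 5′ to 3′ on the gene's strand, with ISRE cores in capitals. The first 5 lines are genes called higher with T3, and the last 3 are examples from the interferon-inducible GTPases. They lie, in the order shown, at chr19:34640779-34640838 (+), chr19:34583382-34583441 (+), chr12:26456538-26456597 (-), chr4:156200850-156200909 (-), chr7:104465195-104465254 (-), chr3:142530258-142530317 (+), chr11:58199497-58199555 (+) and chr11:48871421-48871469 (-).
Ifit1: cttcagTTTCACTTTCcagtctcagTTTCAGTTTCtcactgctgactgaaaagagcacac
Ifit3: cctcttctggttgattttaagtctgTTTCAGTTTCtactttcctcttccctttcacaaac
Rsad2: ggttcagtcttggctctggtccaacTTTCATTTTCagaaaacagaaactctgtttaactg
Isg15: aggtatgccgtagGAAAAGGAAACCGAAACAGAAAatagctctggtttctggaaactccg
Trim30a: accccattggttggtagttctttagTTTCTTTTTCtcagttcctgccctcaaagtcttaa
Gbp7: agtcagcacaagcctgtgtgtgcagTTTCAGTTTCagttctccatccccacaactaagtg
Igtp: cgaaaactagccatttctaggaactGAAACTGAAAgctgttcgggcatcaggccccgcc
Irgm1: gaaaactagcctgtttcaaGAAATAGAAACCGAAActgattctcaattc
Ifit1 holds 2 separate cores within 60 bases, and Isg15 holds 3 that overlap as a repeat. The windows of Gbp7 and Igtp also held a GAS core, those of the other 6 did not. A match describes letters only. The 16 tested members with an ISRE core had a median log2 fold change of 0.80 for T3 in WT, with 5 called, and the 14 with a window but no core had 0.81, also with 5 called. For T3 in KO the medians were 0.45 and 0.61, with 2 called in each set.

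Members of the set were higher with T3 in WT soleus. Of the 40 tested, 15 rose and none fell: Ifi44, Zbp1, Mx2, Isg15, Ifit1, Oas2, Xaf1, Ifit3, Gbp3, Ifi35, Rsad2, Herc6, Ifit2, Rtp4 and Parp14. Increases ran from 0.62 for Parp14 to 2.02 for Ifi44 on the log2 scale. All 40 had a positive fold change, with a median of 0.77 against 0.011 over all 15082 genes, and 14 were at least 2-fold higher. By the same rule 1.72% of all genes were called higher and 1.59% lower. The members were chosen with the T3 differences known, so comparing them with all genes, here and in KO, is a description and not a test. The groups did not overlap for 17 members, each higher with T3, and over all genes 1.88% did not overlap higher and 1.92% lower. A gene was called at an adjusted p below 0.05 (edgeR's quasi-likelihood test, Benjamini-Hochberg over 15082 genes). Every p given for a gene, also with a library left out, is adjusted in this way within its own fit, unless called unadjusted. Without WT vehicle replicate 1, 2, 3 or 5 the count was 7, 6, 9 or 5, with a median fold change between 0.73 and 0.85 whichever library was left out. Calls over all genes, higher and lower together, went from 499 to 305 (2.02%), 325 (2.16%), 284 (1.89%) and 314 (2.09%) in those fits.

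In KO soleus 5 of the 40 rose with T3, Ifi44, Ifit1, Oasl2, Oas2 and Trim30a, and none fell. Of all genes 1.68% were called higher and 1.03% lower. The fold change was positive for 36, and the median was 0.59 against 0.020 over all genes. The groups did not overlap for 7 members, each higher, against 2.75% of all genes higher and 1.91% lower. Oas2, Ifit1 and Ifi44 were called in both genotypes, 12 members in WT alone and 2 in KO alone. The KO count depended on single libraries: it was 0 without KO vehicle replicate 1 or 4, 1 without KO vehicle replicate 2 or KO T3 replicate 3, 2 without KO T3 replicate 5 and 3 without KO T3 replicate 6. It was 9 without WT T3 replicate 5, whose removal changes the shared spread, and the median lay between 0.45 and 0.72 whichever library was left out.

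**Figure D1:**
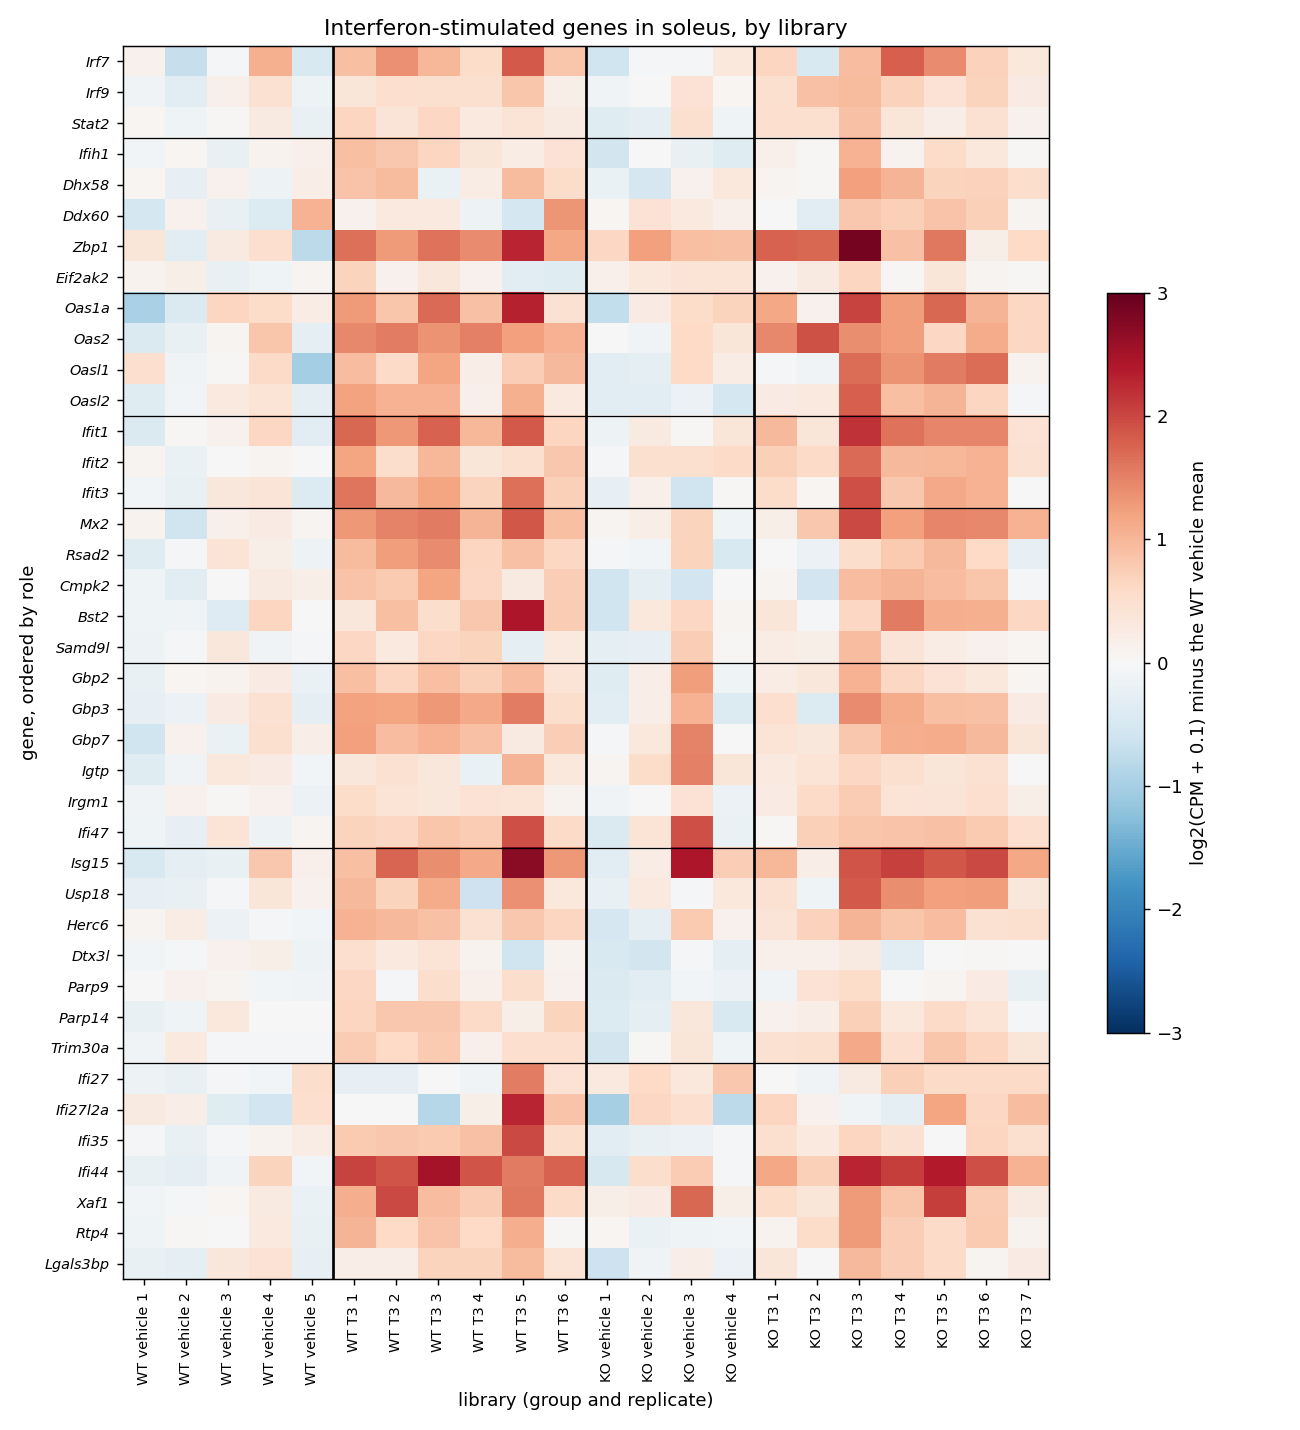
Level of the 40 tested interferon-stimulated genes (rows, by role) in the 22 libraries (columns, by group), as log2(CPM + 0.1) minus the mean of WT vehicle. Red columns mark libraries with high levels: T3 libraries of both genotypes are mostly red, and KO vehicle replicate 3 is red in the block from Gbp2 to Isg15.

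The 3 transcription factors of the set had moderate differences that missed the threshold. Irf7, a factor that amplifies interferon production, spread widely. Irf7 stood at 6.31, 3.55, 5.59, 12.1 and 4.21 CPM in WT vehicle and between 8.54 and 20.8 CPM, with a median of 11.2, in WT T3. In KO, Irf7 stood at 3.81, 5.58, 5.60 and 7.22 CPM under vehicle and between 4.21 and 20.3 CPM, with a median of 9.35, with T3. The groups overlapped in both genotypes, and the log2 fold changes were 1.01 ± 0.34 (adjusted p = 0.107) in WT and 0.98 ± 0.36 (adjusted p = 0.176) in KO. Irf9, the DNA-binding partner of Stat2, varied less. Irf9 read 5.76, 4.86, 6.91, 8.61 and 5.60 CPM in the WT vehicle libraries, and the WT T3 libraries held 7.00 to 11.2 CPM around a median of 8.69. The Irf9 values of KO were 5.79, 6.29, 8.42 and 6.49 CPM under vehicle and 7.38 to 12.1 CPM with T3, with a median of 9.92. In WT 2 T3 libraries lay within the vehicle range and in KO 1 did, with 0.46 ± 0.16 (adjusted p = 0.119) in WT and 0.53 ± 0.17 (adjusted p = 0.0997) in KO. Stat2 ranged from 4.58 to 11.0 CPM over the 22 libraries and had 0.44 ± 0.16 in WT and 0.49 ± 0.16 in KO. None of the 3 was called in either genotype by edgeR. Unadjusted, 3 of 3 had p below 0.05 in both, against 17.2% of all genes in WT and 13.6% in KO. DESeq2 called 1 in WT and 0 in KO, and limma voom 0 in both.

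Of the 5 nucleic acid sensors, Zbp1 rose in WT. Zbp1 (ENSMUSG00000027514, chromosome 2, 173206612 to 173218923) detects nucleic acid in the Z form and can start necroptosis. Zbp1 had 0.260, 0.122, 0.237, 0.300 and 0.0632 CPM in WT vehicle, against a lowest value of 0.528, a median of 0.714 and a highest of 1.27 CPM in WT T3. For Zbp1 the KO vehicle libraries held 0.330, 0.565, 0.428 and 0.416 CPM and the KO T3 libraries 0.217 to 1.95 CPM, with a median of 0.749. The WT T3 libraries lay above every WT vehicle library, and the log2 difference was 1.93 ± 0.48 (adjusted p = 0.026). In KO the groups overlapped, at 0.72 ± 0.47 (adjusted p = 0.557), and every KO vehicle library lay above every WT vehicle library. Leaving out WT vehicle replicate 2, 3 or 5 or WT T3 replicate 5 put the WT adjusted p between 0.051 and 0.0797. Eif2ak2, the kinase PKR that halts translation, was the most abundant sensor per kilobase. Eif2ak2 stood at 7.54, 7.87, 5.96, 6.39 and 7.46 CPM in WT vehicle and between 5.41 and 11.2 CPM, with a median of 7.66, in WT T3. In KO, Eif2ak2 stood at 7.84, 8.69, 9.28 and 9.41 CPM under vehicle and between 7.19 and 11.1 CPM, with a median of 7.66, with T3. The groups overlapped in both genotypes, at 0.14 ± 0.16 (adjusted p = 0.711) in WT and -0.09 ± 0.17 (adjusted p = 0.906) in KO. Ifih1 encodes Mda5, a helicase that binds long viral RNA. Ifih1 read 3.86, 4.32, 3.52, 4.42 and 4.58 CPM in the WT vehicle libraries, and the WT T3 libraries held 4.86 to 7.78 CPM around a median of 6.07. The Ifih1 values of KO were 2.78, 4.17, 3.53 and 3.16 CPM under vehicle and 4.24 to 8.61 CPM with T3, with a median of 4.63. T3 libraries of both genotypes lay above all their vehicle libraries, yet the adjusted p missed the threshold at 0.59 ± 0.18 (adjusted p = 0.0708) and 0.64 ± 0.19 (adjusted p = 0.0724). The helicases Dhx58 (0.424 to 1.64 CPM) and Ddx60 (0.477 to 1.98 CPM) had 0.68 ± 0.27 and 0.19 ± 0.35 in WT, not called. In KO no sensor was called by edgeR or limma voom, and DESeq2 called 1. Unadjusted, 2 of 5 had p below 0.05, against 13.6% of all genes.

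The oligoadenylate synthetases make the oligonucleotides that switch on RNase L, which cuts viral and cellular RNA. Oas2 (ENSMUSG00000032690, chromosome 5, 120730333 to 120749853) rose in both genotypes. Oas2 had 1.34, 1.55, 1.97, 3.35 and 1.52 CPM in WT vehicle, against a lowest value of 3.90, a median of 5.00 and a highest of 5.56 CPM in WT T3. For Oas2 the KO vehicle libraries held 1.87, 1.70, 2.82 and 2.40 CPM and the KO T3 libraries 2.88 to 7.16 CPM, with a median of 4.49. T3 and vehicle libraries did not overlap in either genotype. Mean levels went from 1.94 ± 0.817 to 4.88 ± 0.639 CPM in WT (SD, n = 5 and 6) and from 2.19 ± 0.512 to 4.52 ± 1.48 CPM in KO (n = 4 and 7). The log2 fold changes were 1.32 ± 0.25 (adjusted p = 0.00267) and 1.03 ± 0.26 (adjusted p = 0.03). Oasl2 (ENSMUSG00000029561, chromosome 5, 114896936 to 114912234), a relative of the synthetases, rose in KO. Oasl2 stood at 2.19, 2.69, 3.52, 3.85 and 2.37 CPM in WT vehicle and between 3.20 and 6.69 CPM, with a median of 5.99, in WT T3. In KO, Oasl2 stood at 2.27, 2.23, 2.50 and 1.94 CPM under vehicle and between 2.79 and 10.2 CPM, with a median of 4.54, with T3. In KO every T3 library lay above every vehicle library, at 1.18 ± 0.30 (adjusted p = 0.0319), and in WT they overlapped, at 0.84 ± 0.27 (adjusted p = 0.0948). Both KO calls were lost without certain single libraries. The log2 fold changes were then 0.885 to 1.049 for Oas2 and 0.899 to 1.205 for Oasl2. For Oas2 the p was 0.0518 to 0.135 without KO vehicle replicate 1, 2 or 4 or KO T3 replicate 1, 2 or 3, and for Oasl2 0.0501 to 0.123 without any KO vehicle library or KO T3 replicate 3 or 5. Oas1a (0.111 to 1.94 CPM) and Oasl1 (0.190 to 1.80 CPM) had 1.46 ± 0.44 and 0.77 ± 0.41 in WT and 1.11 ± 0.46 and 1.10 ± 0.43 in KO, none of them called. Oas3 had 14 counts in KO T3 replicate 3 and at most 7 in any other library.

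The Ifit proteins bind the ends of viral RNA and keep it from ribosomes, and all 3 Ifit members rose in WT. Ifit1 (ENSMUSG00000034459, chromosome 19, 34640871 to 34650009) carries the pair of ISRE cores shown above. Ifit1 read 1.89, 2.65, 2.85, 4.02 and 2.06 CPM in the WT vehicle libraries, and the WT T3 libraries held 4.09 to 9.56 CPM around a median of 7.71. The Ifit1 values of KO were 2.34, 3.18, 2.68 and 3.37 CPM under vehicle and 3.37 to 12.0 CPM with T3, with a median of 7.33. In WT the groups were separate, at 1.43 ± 0.30 (adjusted p = 0.00681), and in KO the lowest T3 library lay barely above the highest vehicle library, at 1.21 ± 0.31 (adjusted p = 0.0366). The KO call was lost without any KO vehicle library or KO T3 replicate 3, 4, 5 or 6, with p between 0.0538 and 0.123. Ifit3 (ENSMUSG00000074896, chromosome 19, 34583531 to 34588731) was the most abundant of the family per kilobase. Ifit3 had 3.75, 3.39, 5.05, 5.19 and 2.94 CPM in WT vehicle, against a lowest value of 6.41, a median of 8.55 and a highest of 12.6 CPM in WT T3. For Ifit3 the KO vehicle libraries held 3.33, 4.41, 2.60 and 4.06 CPM and the KO T3 libraries 3.91 to 15.5 CPM, with a median of 6.97. T3 lay above vehicle in all WT libraries, at 1.18 ± 0.29 (adjusted p = 0.0248), and the KO value of 1.07 ± 0.31 (adjusted p = 0.0648) was not called. The WT call was lost without WT vehicle replicate 1, 2 or 5, with p between 0.0589 and 0.0789. Ifit2 (ENSMUSG00000045932, chromosome 19, 34550694 to 34576419) had no ISRE core in its windows. Ifit2 stood at 5.64, 4.65, 5.39, 5.62 and 5.41 CPM in WT vehicle and between 6.87 and 12.2 CPM, with a median of 8.55, in WT T3. In KO, Ifit2 stood at 5.24, 7.52, 7.53 and 7.98 CPM under vehicle and between 7.37 and 17.6 CPM, with a median of 10.6, with T3. WT groups were separate and close, at 0.76 ± 0.19 (adjusted p = 0.0301), and the KO value was 0.58 ± 0.20 (adjusted p = 0.145). Without WT vehicle replicate 1, 2, 3 or 5 or WT T3 replicate 1 or 3 the WT p was 0.0553 to 0.0812. Ifit3 has a near-identical neighbour, Ifit3b, and reads could be split between them.

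Mx2 and Rsad2 rose in WT among the 5 tested genes of viral restriction. Mx2 (ENSMUSG00000023341, chromosome 16, 97535308 to 97560900) encodes a dynamin-like GTPase that traps viral particles. Mx2 read 0.260, 0.122, 0.271, 0.300 and 0.253 CPM in the WT vehicle libraries, and the WT T3 libraries held 0.528 to 1.11 CPM around a median of 0.785. The Mx2 values of KO were 0.256, 0.282, 0.428 and 0.208 CPM under vehicle and 0.276 to 1.21 CPM with T3, with a median of 0.680. All WT T3 libraries lay above the vehicle range, at 1.66 ± 0.33 (adjusted p = 0.00533), and 1 KO T3 library overlapped, at 1.21 ± 0.35 (adjusted p = 0.0636). Rsad2 (ENSMUSG00000020641, chromosome 12, 26442746 to 26456452) encodes viperin, which makes a chain-terminating nucleotide. Rsad2 had 6.39, 7.87, 11.0, 9.31 and 7.33 CPM in WT vehicle, against a lowest value of 12.7, a median of 15.6 and a highest of 22.3 CPM in WT T3. For Rsad2 the KO vehicle libraries held 8.02, 7.77, 13.2 and 6.00 CPM and the KO T3 libraries 6.90 to 16.2 CPM, with a median of 11.9. WT groups were separate, at 0.97 ± 0.24 (adjusted p = 0.021), and the KO groups overlapped, at 0.34 ± 0.24 (adjusted p = 0.613). The Rsad2 call was lost without WT vehicle replicate 1, 2 or 5, with p between 0.056 and 0.0649. Bst2, or tetherin, which holds budding virus at the cell surface, was the most abundant of the group per kilobase. Bst2 stood at 4.46, 4.53, 3.73, 7.79 and 4.87 CPM in WT vehicle and between 6.29 and 26.9 CPM, with a median of 8.52, in WT T3. In KO, Bst2 stood at 3.19, 6.18, 7.64 and 5.24 CPM under vehicle and between 4.76 and 14.7 CPM, with a median of 7.60, with T3. WT T3 replicate 5 held the 26.9 CPM, and without it the log2 fold change of 1.13 ± 0.34 (adjusted p = 0.073) in WT was 0.65 (adjusted p = 0.178). In KO it was 0.67 ± 0.36 (adjusted p = 0.434). Cmpk2, a mitochondrial nucleotide kinase beside Rsad2 on chromosome 12, had 0.76 ± 0.24 and 0.91 ± 0.26 (2.56 to 9.06 CPM), and Samd9l, a translation inhibitor, 0.40 ± 0.20 and 0.21 ± 0.20 (7.12 to 16.6 CPM), none called. In KO none of the 5 was called by edgeR or limma voom, and DESeq2 called 2. Unadjusted, 2 had p below 0.05, against 13.6% of all genes. Mx1 had at most 8 counts in a library.

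**Figure D2:**
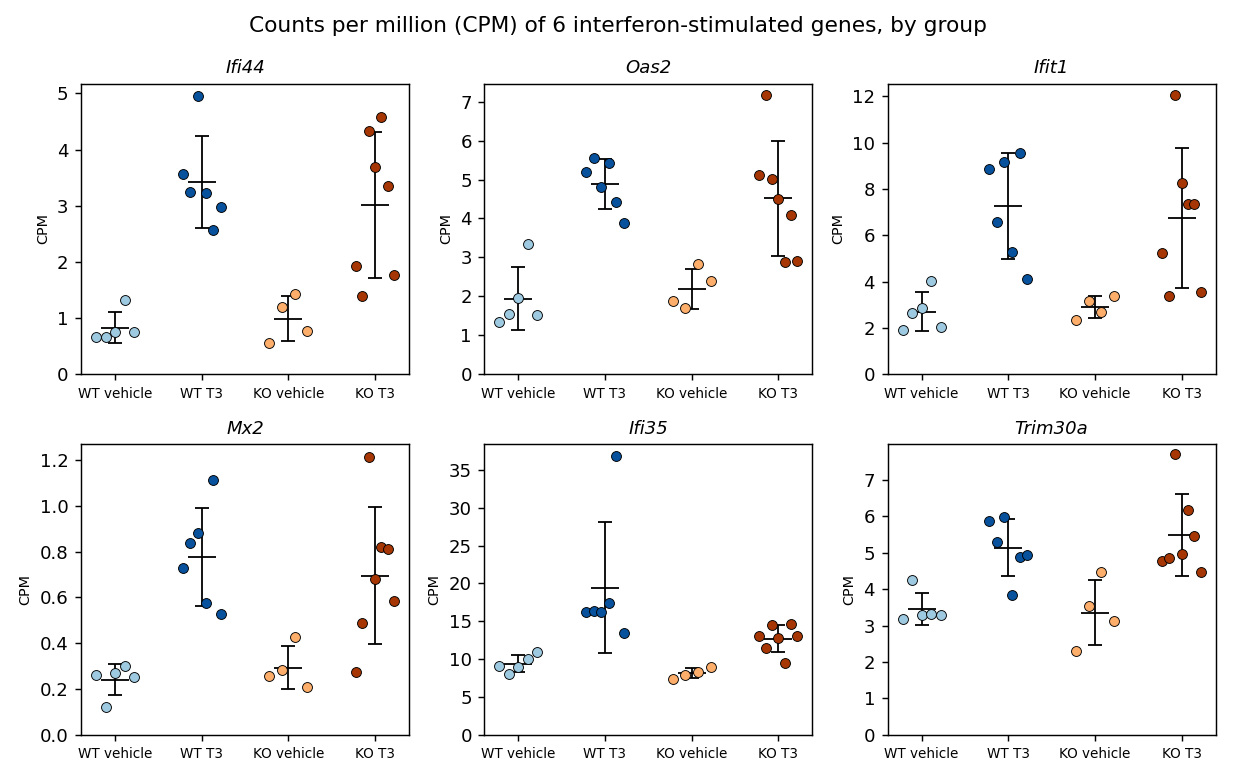
CPM of Ifi44, Oas2, Ifit1, Mx2, Ifi35 and Trim30a in the 4 groups, with 1 point per library and the mean ± SD in black (n = 5, 6, 4 and 7). The T3 points lie above the vehicle points in WT for all genes but Trim30a, and Ifi35 has a single high WT T3 point at 36.9 CPM.

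The interferon-inducible GTPases, which coat and break vacuoles holding pathogens, had the widest gap between the WT and KO medians of the 8 role classes, and the gap was smaller without 1 library. Gbp3 (ENSMUSG00000028268, chromosome 3, 142560026 to 142573202), a guanylate-binding protein, was the only one of 6 called in WT. Gbp3 read 4.31, 4.53, 6.10, 7.17 and 4.27 CPM in the WT vehicle libraries, and the WT T3 libraries held 7.46 to 15.1 CPM around a median of 11.9. The Gbp3 values of KO were 4.14, 5.90, 10.7 and 3.85 CPM under vehicle and 3.86 to 13.9 CPM with T3, with a median of 9.64. In WT the groups were separate, at 1.16 ± 0.28 (adjusted p = 0.0218); without WT vehicle replicate 1, 2 or 5 the p was 0.0585 to 0.0712. In KO it overlapped, at 0.52 ± 0.29 (adjusted p = 0.474). Gbp2 was the most abundant of them per kilobase. Gbp2 had 8.28, 10.2, 10.5, 11.6 and 8.51 CPM in WT vehicle, against a lowest value of 13.1, a median of 17.2 and a highest of 18.6 CPM in WT T3. For Gbp2 the KO vehicle libraries held 7.51, 11.2, 23.4 and 8.85 CPM and the KO T3 libraries 10.1 to 20.1 CPM, with a median of 12.4. The WT groups were separate. KO vehicle replicate 3, at 23.4 CPM, was the highest of all 22 libraries, and the fold changes were 0.76 ± 0.22 (adjusted p = 0.0606) in WT and 0.08 ± 0.23 (adjusted p = 0.943) in KO. Irgm1, which regulates the other family members, was steadier. Irgm1 stood at 17.9, 21.1, 19.6, 21.0 and 17.0 CPM in WT vehicle and between 20.8 and 28.4 CPM, with a median of 25.7, in WT T3. In KO, Irgm1 stood at 17.9, 19.1, 26.1 and 17.1 CPM under vehicle and between 21.9 and 32.9 CPM, with a median of 25.7, with T3. In WT 1 T3 library lay within the vehicle range, at 0.38 ± 0.12 (adjusted p = 0.0877), and in KO 4 did, at 0.39 ± 0.13 (adjusted p = 0.107). Over the 6 genes the median log2 fold change with T3 was 0.80 in WT and 0.12 in KO. In KO edgeR, DESeq2 and limma voom called none of them. Unadjusted, 1 had p below 0.05, against 13.6% of all genes.

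KO vehicle replicate 3 stood apart for this family. Its level, as the median over the 6 GTPase genes relative to the WT vehicle mean, was 1.37 on the log2 scale, and the other 8 vehicle libraries lay between -0.24 and 0.26. Gbp7 stood at 14.6 CPM there against 5.02 to 6.46 in the other KO vehicle libraries, Igtp at 16.4 against 6.08 to 8.37, and Ifi47 at 5.71 against 1.03 to 1.91. These genes and Gbp2 were higher in it than in any other library. The median of the Ifit family was only 0.04 in the same library. Outside the members, Gbp4 held 21.4 CPM there against at most 5.08 in the other KO vehicle libraries, and Iigp1, a further family member, 31.2 against 5.02 to 7.06. For KO against WT under vehicle they were at 0.87 and 0.73 on the log2 scale, and Tgtp1 and Tgtp2 at 0.65 and 0.75. Their relatives Gbp5 and Irgm2 were at 0.22 and 0.16, and Gbp6 and Gbp9 at 0.01 and -0.05, none of them called. T-cell markers summed to 2.85 CPM in KO vehicle replicate 3 and to at most 0.826 in any other library, with Cd4 at 0 in all KO vehicle libraries. Macrophage markers summed to 98.8 CPM there, against highest sums of 69.4 CPM in WT vehicle, 179 in WT T3 and 164 in KO T3. The part of these markers in the result was not tested. Without this library the GTPase median for T3 in KO was 0.58 with Irgm1 called (0.52, adjusted p = 0.0353), the median of the difference between genotypes went from -0.68 to -0.25, and 7 of the 40 members were called in KO: Stat2, Oas2, Irgm1, Herc6, Parp14, Trim30a and Ifi44. The GTPase median for KO against WT under vehicle fell from 0.46 to -0.06 on leaving it out. Over all genes 245 (1.6%) were called for T3 in KO without this library.

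**Figure D3:**
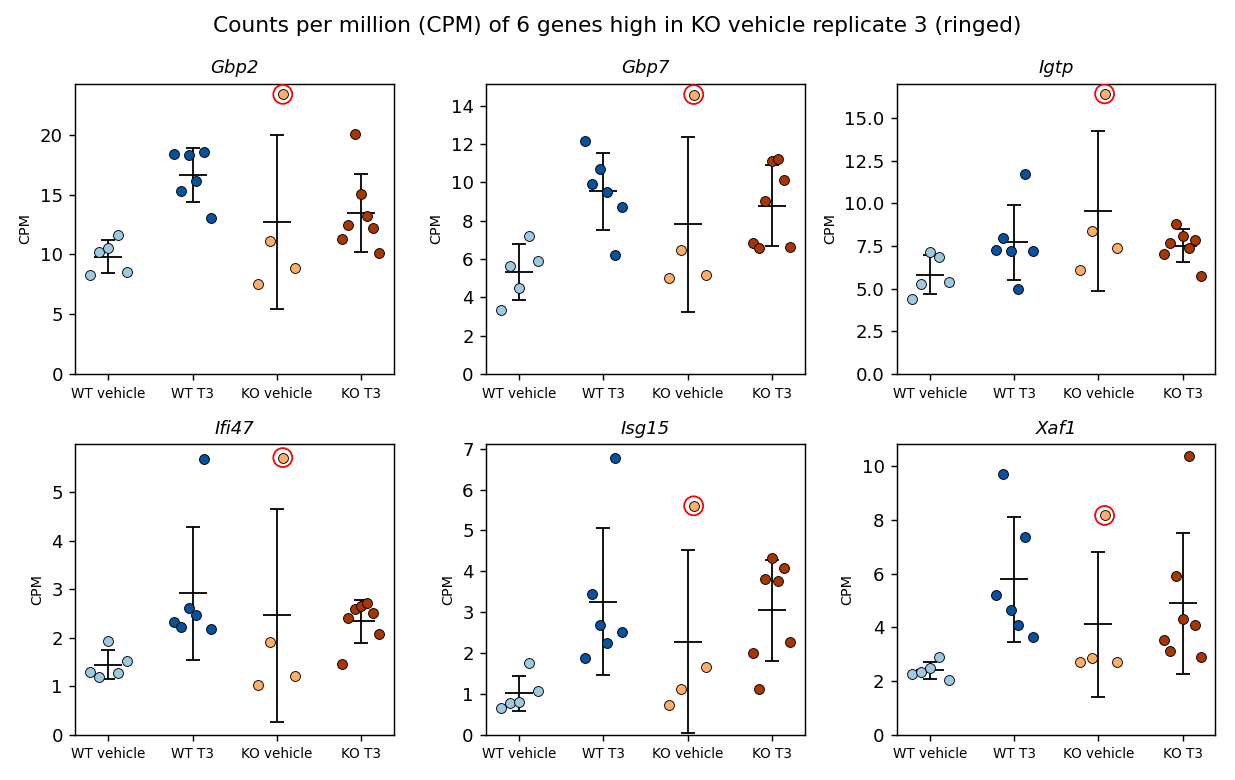
CPM of Gbp2, Gbp7, Igtp, Ifi47, Isg15 and Xaf1 in the 4 groups, with 1 point per library, the mean ± SD in black, and KO vehicle replicate 3 ringed in red. The ringed point is the highest of its group for all 6 genes, and of all 22 libraries for Gbp2, Gbp7, Igtp and Ifi47.

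Isg15 is a ubiquitin-like protein that is joined to other proteins during antiviral defence, and 3 of the 7 tested genes of this class rose in WT. Isg15 itself (ENSMUSG00000035692, chromosome 4, 156199455 to 156200796) carries the overlapping ISRE cores. Isg15 read 0.668, 0.775, 0.813, 1.75 and 1.07 CPM in the WT vehicle libraries, and the WT T3 libraries held 1.88 to 6.77 CPM around a median of 2.59. The Isg15 values of KO were 0.733, 1.13, 5.60 and 1.67 CPM under vehicle and 1.11 to 4.31 CPM with T3, with a median of 3.77. WT groups were separate, with WT T3 replicate 5 far above the rest, and the log2 fold change was 1.66 ± 0.46 (adjusted p = 0.0493). In KO the value was 0.41 ± 0.46 (adjusted p = 0.802), and 1.34 (adjusted p = 0.142) without KO vehicle replicate 3. The WT call lies at the threshold: leaving out any of 15 libraries (WT vehicle replicates 1, 2, 3 and 5, WT T3 replicates 2, 3, 5 and 6, KO vehicle replicate 4 and KO T3 replicates 1 and 3 to 7) gave p between 0.0507 and 0.126. Herc6 (ENSMUSG00000029798, chromosome 6, 57581000 to 57664632) encodes the ligase that attaches Isg15 in the mouse. Herc6 had 1.04, 1.14, 0.847, 0.924 and 0.917 CPM in WT vehicle, against a lowest value of 1.37, a median of 1.83 and a highest of 2.11 CPM in WT T3. For Herc6 the KO vehicle libraries held 0.659, 0.777, 1.75 and 1.08 CPM and the KO T3 libraries 1.30 to 2.06 CPM, with a median of 1.63. WT groups were separate, at 0.88 ± 0.22 (adjusted p = 0.0232), and KO was at 0.61 ± 0.23 (adjusted p = 0.176); without WT vehicle replicate 3 or 5 the WT p was 0.0721 or 0.0649. Parp14 (ENSMUSG00000034422, chromosome 16, 35832874 to 35871544) transfers ADP-ribose. Parp14 stood at 8.80, 9.38, 12.7, 10.4 and 10.4 CPM in WT vehicle and between 11.5 and 18.1 CPM, with a median of 16.1, in WT T3. In KO, Parp14 stood at 7.73, 8.44, 13.1 and 7.39 CPM under vehicle and between 9.82 and 17.0 CPM, with a median of 12.9, with T3. The ranges overlapped in WT, at 0.62 ± 0.16 (adjusted p = 0.0343), and in KO, at 0.52 ± 0.17 (adjusted p = 0.115). Its WT p was 0.0549 to 0.0934 without WT vehicle replicate 1, 2, 4 or 5 or WT T3 replicate 2, 3 or 6.

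Trim30a (ENSMUSG00000030921, chromosome 7, 104409025 to 104465193), a ubiquitin ligase that dampens Toll-like receptor signals, rose in KO. Trim30a read 3.19, 4.24, 3.29, 3.32 and 3.29 CPM in the WT vehicle libraries, and the WT T3 libraries held 3.83 to 5.98 CPM around a median of 5.12. The Trim30a values of KO were 2.31, 3.53, 4.46 and 3.12 CPM under vehicle and 4.47 to 7.71 CPM with T3, with a median of 4.96. In KO the lowest T3 library lay just above the highest vehicle library, at 0.70 ± 0.18 (adjusted p = 0.0332), and WT gave 0.57 ± 0.17 (adjusted p = 0.0666). The KO p was 0.0514 to 0.149 without WT vehicle replicate 1, WT T3 replicate 2, KO vehicle replicate 1, 2 or 4 or KO T3 replicate 3, 5 or 6. Dtx3l, which forms a ubiquitin ligase with Parp9, was the second most abundant of the class per kilobase. Dtx3l had 14.8, 15.0, 17.0, 17.6 and 14.1 CPM in WT vehicle, against a lowest value of 10.3, a median of 18.0 and a highest of 22.1 CPM in WT T3. For Dtx3l the KO vehicle libraries held 11.4, 10.7, 15.2 and 12.7 CPM and the KO T3 libraries 12.4 to 18.8 CPM, with a median of 16.1. All its groups overlapped, at 0.17 ± 0.15 (adjusted p = 0.609) and 0.37 ± 0.16 (adjusted p = 0.284). Parp9 had 0.34 ± 0.15 and 0.40 ± 0.15 (7.47 to 15.7 CPM), and Usp18, which removes Isg15 and blocks the interferon receptor, 0.79 ± 0.34 and 0.99 ± 0.35 (0.849 to 5.07 CPM), none called. Dtx3l and Parp9 share 458 exonic bases on opposite strands, and 1269 of the 9292 exonic bases of Herc6 lie in another gene model on its own strand (GENCODE M21), so reads there are uncertain.

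Among the other induced proteins Ifi44 had the largest fold change of the 40. Ifi44 (ENSMUSG00000028037, chromosome 3, 151730922 to 151749960) encodes a cytoplasmic protein that limits virus growth. Ifi44 stood at 0.668, 0.653, 0.745, 1.32 and 0.759 CPM in WT vehicle and between 2.57 and 4.95 CPM, with a median of 3.24, in WT T3. In KO, Ifi44 stood at 0.549, 1.20, 1.43 and 0.764 CPM under vehicle and between 1.39 and 4.59 CPM, with a median of 3.36, with T3. WT groups were far apart, and in KO only the lowest T3 library, at 1.39 CPM, fell under the highest vehicle library, at 1.43 CPM. Means went from 0.830 ± 0.280 to 3.42 ± 0.819 CPM in WT and from 0.985 ± 0.400 to 3.01 ± 1.30 CPM in KO (SD). The log2 fold changes were 2.02 ± 0.32 (adjusted p = 0.000505) and 1.60 ± 0.34 (adjusted p = 0.0101), and the KO p was 0.0501 without KO vehicle replicate 1 and 0.0547 without replicate 4. Ifi35 (ENSMUSG00000010358, chromosome 11, 101448407 to 101458698), a leucine-zipper protein, rose in WT. Ifi35 read 9.10, 8.00, 8.91, 9.99 and 11.0 CPM in the WT vehicle libraries, and the WT T3 libraries held 13.5 to 36.9 CPM around a median of 16.3. The Ifi35 values of KO were 7.40, 7.95, 8.24 and 9.03 CPM under vehicle and 9.48 to 14.6 CPM with T3, with a median of 13.0. T3 lay above vehicle in both genotypes with no overlap, at 1.05 ± 0.19 (adjusted p = 0.00253) in WT and 0.64 ± 0.20 (adjusted p = 0.0997) in KO. WT T3 replicate 5, at 36.9 CPM, stood far from the other 5, and without it both were called, at 0.77 (adjusted p = 0.000359) and 0.61 (adjusted p = 0.00343). Of its 1727 exonic bases 290 are shared with a gene on the opposite strand.

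Xaf1 and Rtp4 also rose in WT. Xaf1 (ENSMUSG00000040483, chromosome 11, 72301629 to 72313733) binds the apoptosis inhibitor XIAP. Xaf1 had 2.27, 2.33, 2.51, 2.90 and 2.06 CPM in WT vehicle, against a lowest value of 3.63, a median of 4.94 and a highest of 9.73 CPM in WT T3. For Xaf1 the KO vehicle libraries held 2.71, 2.86, 8.17 and 2.71 CPM and the KO T3 libraries 2.90 to 10.4 CPM, with a median of 4.11. WT groups were separate, at 1.27 ± 0.35 (adjusted p = 0.0445); KO vehicle replicate 3 stood at 8.17 CPM, and KO gave 0.25 ± 0.35 (adjusted p = 0.861). Leaving out any WT vehicle library, WT T3 replicate 1, 2 or 5 or KO T3 replicate 6 put the WT p between 0.052 and 0.103. Rtp4 (ENSMUSG00000033355, chromosome 16, 23520291 to 23613714) is a chaperone of membrane receptors. Rtp4 stood at 3.83, 4.28, 4.20, 5.19 and 3.60 CPM in WT vehicle and between 4.29 and 8.99 CPM, with a median of 7.03, in WT T3. In KO, Rtp4 stood at 4.36, 3.64, 3.85 and 3.96 CPM under vehicle and between 4.52 and 10.2 CPM, with a median of 6.25, with T3. WT overlapped by 1 pair of libraries, at 0.74 ± 0.20 (adjusted p = 0.0343), and KO did not overlap, at 0.72 ± 0.21 (adjusted p = 0.0598). The WT p was 0.0553 to 0.0965 without WT vehicle replicate 1, 2, 3 or 5 or WT T3 replicate 1, 3 or 5. The small membrane proteins Ifi27 and Ifi27l2a were the most abundant of all 42 per kilobase, at 19.3 and 15.6 RPKM (CPM per kilobase). Ifi27 read 19.9, 19.2, 21.2, 20.9 and 32.0 CPM in the WT vehicle libraries, and the WT T3 libraries held 18.6 to 65.0 CPM around a median of 21.7. The Ifi27 values of KO were 27.1, 33.8, 27.9 and 38.8 CPM under vehicle and 20.6 to 36.7 CPM with T3, with a median of 33.0. Ifi27l2a had 6.42, 6.08, 4.10, 3.52 and 7.53 CPM in WT vehicle, against a lowest value of 2.90, a median of 5.67 and a highest of 26.3 CPM in WT T3. For Ifi27l2a the KO vehicle libraries held 2.60, 8.23, 7.60 and 3.02 CPM and the KO T3 libraries 4.34 to 12.3 CPM, with a median of 8.22. Both were highest in WT T3 replicate 5, and their WT fold changes of 0.37 ± 0.26 and 0.75 ± 0.44 were -0.03 and 0.08 without it. Lgals3bp, a secreted partner of galectin, had 0.51 ± 0.20 and 0.60 ± 0.21 (7.11 to 21.7 CPM), not called.

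No difference between the T3 responses of the genotypes passed the test. The fold change was larger in WT for 26 of 40 members, and the median difference, KO response minus WT response, was -0.20 with a median SE of 0.36. Over all genes the median difference was 0.023, and 54.3% were positive. None of the 40 was called by edgeR, DESeq2 or limma voom (smallest adjusted p = 1), and 4 had an unadjusted p below 0.05: Gbp2, Igtp, Ifi47 and Xaf1. Over all genes 0.00663% were called higher and 0% lower, and 2.46% had an unadjusted p below 0.05. The 4 members are among the genes high in KO vehicle replicate 3. Ifi47 went from -1.10 ± 0.49 to -0.29 without it, Xaf1 from -1.02 ± 0.49 to -0.47, Igtp from -0.76 ± 0.31 to -0.39 and Gbp2 from -0.68 ± 0.31 to -0.24. A call in WT alone is thus not shown to differ from KO. The T3 comparison in WT and the genotype comparison under vehicle share the WT vehicle libraries.

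**Figure D4:**
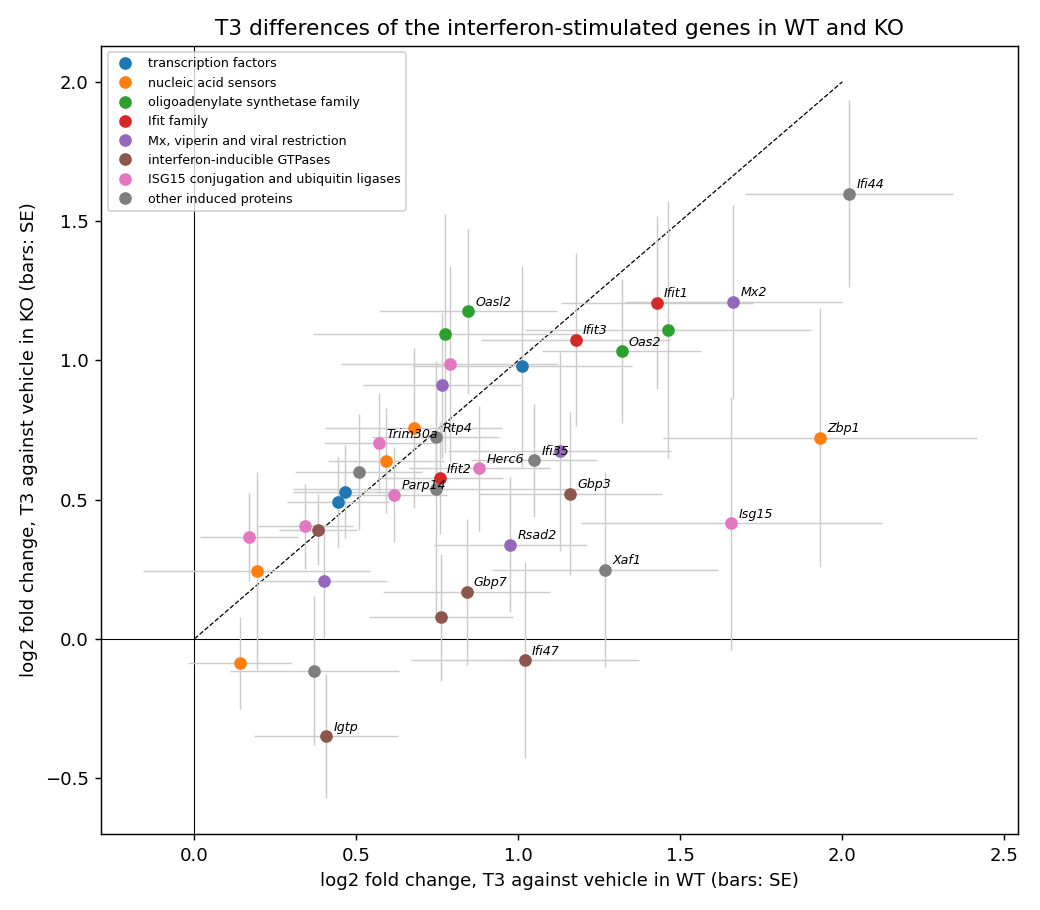
Log2 fold change with T3 in WT (x axis) and in KO (y axis) of the 40 tested genes, coloured by role, with SE bars and a dashed line of equal values; genes called in either comparison and 3 GTPase genes are named. Of the 40 points 26 lie below the line, and the GTPases Igtp, Ifi47 and Gbp7 lie near or below 0 in KO.

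Under vehicle the members did not separate KO from WT. By edgeR, DESeq2 and limma voom 0 of 40 were called, where 1.56% of all genes were called higher and 1.52% lower. Unadjusted, 2 members, Igtp and Isg15, had p below 0.05, or 5% of the 40 against 14.1% of all genes. The median log2 fold change of the members was 0.09, against -0.02 over all genes, and -0.07 without KO vehicle replicate 3. Igtp was at 0.71 ± 0.24 (adjusted p = 0.126) and was called higher in KO without KO vehicle replicate 1, while it was 0.34 (adjusted p = 0.605) without KO vehicle replicate 3. Zbp1 was the single member whose groups did not overlap, higher in KO at 1.11 ± 0.54 (adjusted p = 0.366), where 4.54% of all genes did not overlap higher and 4.56% lower. With T3 the median was -0.12, and 0.04 with total counts as the only scaling. In the main fit 30 of 40 members lay lower in KO, while 49.9% of all genes were positive with a median of -0.0006. Of the 40 members Ifi35 alone was called, at -0.61 ± 0.17 (adjusted p = 0.0364), where 3.23% of all genes were called higher and 2.34% lower. The ranges overlapped, and no member separated the groups (1.64% of all genes higher, 0.869% lower). Without KO T3 replicate 1, 2, 4, 5 or 7 the Ifi35 p was 0.0502 to 0.0856, and without WT T3 replicate 5 the difference was -0.34 (adjusted p = 0.0487). Fibre genes differed between the genotypes in the same libraries: of 6 slow-fibre markers 4 were higher in KO under vehicle (median 0.85) and 5 with T3 (median 1.04), and their part in the genotype comparisons was not tested. Rsad2 was the other member with an unadjusted p below 0.05, at -0.58 ± 0.21 (adjusted p = 0.126), where 17.6% of all genes had one.

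The median over the 40 members, relative to the WT vehicle mean on the log2 scale, was -0.12 to 0.26 in WT vehicle, 0.57 to 0.98 in WT T3, -0.31 to 0.46 in KO vehicle and 0.26 to 0.99 in KO T3, so the T3 and vehicle libraries were separate in WT and overlapped in KO. KO T3 replicate 3 held the highest level of all 22 libraries for 16 members, including Zbp1, Oasl2, Mx2 and the 3 Ifit genes, and had 18166907 counts. WT T3 replicate 5 was highest for 8, among them Isg15, Bst2, Ifi35 and Ifi27, and lowest for 3, Ddx60, Samd9l and Dtx3l. KO vehicle replicate 1 was lowest for 13. The summed level of the 42 genes was 200.2 to 253 CPM in WT vehicle, 301 to 457 in WT T3, 188 to 313 in KO vehicle and 259 to 414 in KO T3. In bulk tissue more cells of a type and more RNA per cell cannot be told apart.

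Interferon genes themselves were at or near 0. The 20 ligand genes summed to at most 0.037 CPM in any library, Ifnb1 had no count in any, and Ifng had 1 count in WT vehicle, 1 in WT T3 and none in KO. A count of 0 in the library of 75766782 counts puts an upper confidence bound of about 3 on the expected count, which covers counting error only. In shallower libraries, down to 14542548 counts, the same bound is a higher CPM. None of the ligands passed the filter. Of 6 receptor genes 1 rose with T3, in both genotypes: Ifngr2, a chain of the interferon gamma receptor. Of all genes 1.72% were called higher in WT and 1.68% in KO. Ifngr2 stood at 48.2, 44.5, 47.9, 55.5 and 36.9 CPM in WT vehicle and between 51.7 and 71.7 CPM, with a median of 65.3, in WT T3. In KO, Ifngr2 stood at 45.4, 41.0, 40.8 and 36.2 CPM under vehicle and between 46.8 and 67.9 CPM, with a median of 55.2, with T3. In WT 1 T3 library lay within the vehicle range and in KO none did, at 0.47 ± 0.12 (adjusted p = 0.0222) in WT and 0.47 ± 0.12 (adjusted p = 0.0373) in KO. The WT call was lost without WT vehicle replicate 2, 3 or 5 (p up to 0.0795), and the KO call without 11 single libraries, all KO vehicle ones among them (p up to 0.183). Ifnar1 was at -0.21 ± 0.09 in WT and -0.06 ± 0.09 in KO, Ifnar2 at 0.05 ± 0.14 and 0.07 ± 0.14, and Ifngr1 at 0.27 ± 0.09 and 0.21 ± 0.09, none called.

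Of 10 signal transducers, the kinase Jak2 rose in both genotypes and kept its call without any single library. Its mean level went from 36.1 ± 9.34 to 66.7 ± 8.36 CPM in WT and from 26.9 ± 4.08 to 56.4 ± 12.9 CPM in KO (SD, n = 5, 6, 4 and 7). T3 and vehicle did not overlap, at 0.89 ± 0.16 (adjusted p = 0.00258) in WT and 1.06 ± 0.18 (adjusted p = 0.00105) in KO. Irf1, a transcription factor of the interferon gamma response, was not called, at 0.51 ± 0.16 (adjusted p = 0.0906) and 0.15 ± 0.17 (adjusted p = 0.8). Irf5, a factor of Toll-like receptor signalling, fell with T3 in WT and was lower in KO. Irf5 read 3.94, 3.92, 5.59, 6.52 and 5.85 CPM in the WT vehicle libraries, and the WT T3 libraries held 2.26 to 3.21 CPM around a median of 2.86. The Irf5 values of KO were 1.94, 3.28, 0.999 and 1.56 CPM under vehicle and 1.11 to 2.43 CPM with T3, with a median of 1.45. WT vehicle was above all other groups: the T3 difference in WT was -0.91 ± 0.23 (adjusted p = 0.0298), KO against WT was -1.41 ± 0.27 (adjusted p = 0.00412) under vehicle and -0.74 ± 0.22 (adjusted p = 0.0463) with T3, and T3 in KO gave -0.24 ± 0.25 (adjusted p = 0.785). The WT T3 call was lost without WT vehicle replicate 3, 4 or 5 or WT T3 replicate 2 or 4 (p up to 0.0783), the KO call with T3 without 12 single libraries (p up to 0.0974), and that under vehicle was kept without any single library. Of 13 tested genes of nucleic acid sensing, Mavs, the mitochondrial adaptor of the RNA helicases, fell with T3 in WT, from 181 ± 29.2 to 114 ± 20.2 CPM, at -0.66 ± 0.15 (adjusted p = 0.0108). With T3 it was higher in KO than in WT, at 0.77 ± 0.14 (adjusted p = 0.000799), and both calls held without any single library. Tlr7, a receptor for viral RNA, rose in KO at 1.48 ± 0.36 (adjusted p = 0.0274), but not without any KO vehicle library or KO T3 replicate 3 (p up to 0.125). No negative regulator of the pathway was called by edgeR in either T3 comparison. Unadjusted, 1 of 7 in WT and 2 in KO had p below 0.05, against 17.2% and 13.6% of all genes. DESeq2 called 1 and 0 and limma voom none. By edgeR 1.72% of all genes were called higher and 1.59% lower with T3 in WT, and 1.68% and 1.03% in KO. For KO against WT these shares were 1.56% and 1.52% under vehicle and 3.23% and 2.34% with T3.

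**Figure D5:**
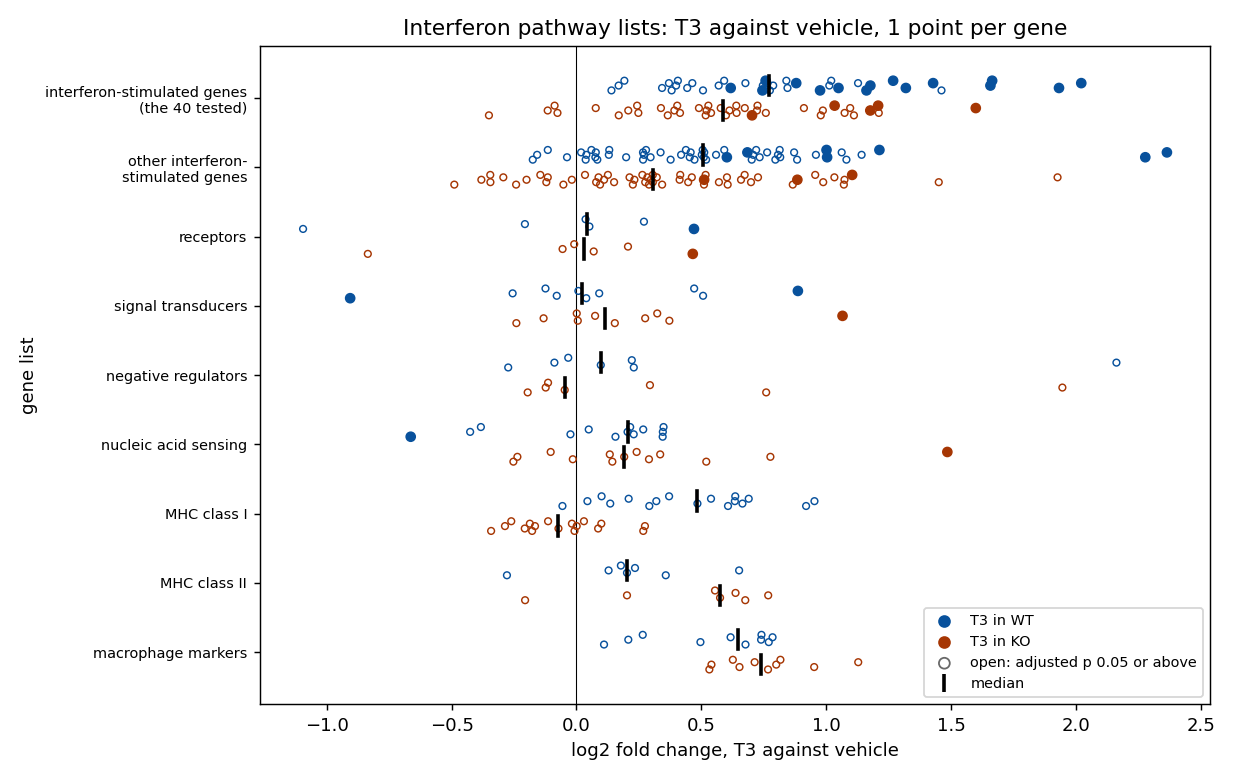
Log2 fold change with T3 in WT (blue) and KO (brown) of each tested gene of the interferon-stimulated set and of 8 related lists, with filled points for adjusted p below 0.05 and a black bar at the median. The interferon-stimulated genes have medians of 0.77 and 0.59, and the medians of receptors and signal transducers lie at 0.04 and 0.02 in WT, with Ifngr2, Jak2 and Irf5 filled.

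A second list of 55 tested interferon-stimulated genes outside the set was, like the members, chosen with earlier results of these data known. It had 7 called higher in WT and 3 in KO, where 1.72% and 1.68% of all genes were. Its medians were 0.51 and 0.31, against 0.011 and 0.020 over all genes. The 7 called in WT were Slfn5, Apol9b, Trim12a, Slfn2, Apol9a, Phf11d and Ifi204. Slfn5, a Schlafen protein, went from 44.6 ± 5.47 to 67.6 ± 7.07 CPM, at 0.60 ± 0.12 (adjusted p = 0.00488), and was lower in KO than in WT with T3, at -0.45 ± 0.11 (adjusted p = 0.0129). Apol9b, an apolipoprotein L relative with a near-identical copy in Apol9a, was at 2.36 ± 0.50 (adjusted p = 0.00833), Trim12a at 0.68 ± 0.15 (adjusted p = 0.0104) and Slfn2 at 1.21 ± 0.27 (adjusted p = 0.0111). These 4 kept their WT call whichever single library was left out. Apol9a and Phf11d each lost it without 5 libraries (p up to 0.0758 and 0.0701). Ifi204, an interferon-inducible DNA sensor at 1.00 ± 0.28 (adjusted p = 0.0492) in WT and 1.10 ± 0.30 (adjusted p = 0.0468) in KO, lost its calls without 16 and 17 single libraries (p up to 0.126 and 0.178). The KO calls of Trim34a, at 0.88 ± 0.23 (adjusted p = 0.0376), and Tor3a, at 0.51 ± 0.12 (adjusted p = 0.0212), were lost without 12 and 3 libraries (p up to 0.167 and 0.151). Cxcl9, a chemokine of interferon gamma, was lower in KO with T3 at -1.05 ± 0.31 (adjusted p = 0.049), a call lost without 15 libraries (p up to 0.103). The 17 genes of MHC class I antigen presentation had a median of 0.48 for T3 in WT and -0.07 in KO. Neither had an edgeR or limma voom call, and DESeq2 called 1 and 0. Unadjusted, 8 of 17 in WT and 0 in KO had p below 0.05, against 17.2% and 13.6% of all genes. Without WT T3 replicate 5, where these genes summed to 918 CPM, the WT median was 0.23. Their sum was 343 to 571 CPM in KO vehicle, highest in replicate 3, and 398 to 587 CPM in KO T3. None of them was called in the difference between T3 responses. H2-T22 of this list was lower in KO than in WT with T3, at -0.64 ± 0.15 (adjusted p = 0.0127), also without any single library.

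The 10 macrophage markers had positive fold changes with T3 in both genotypes, with medians of 0.65 in WT and 0.74 in KO. Unadjusted, 3 in WT and 6 in KO had p below 0.05, against 17.2% and 13.6% of all genes. None of the 10 markers was called by edgeR, DESeq2 or limma voom. Their summed level was 48.1 to 69.4 CPM in WT vehicle, 62.5 to 179 in WT T3, 41.4 to 98.8 in KO vehicle and 49.1 to 164 in KO T3, and the WT median was 0.26 without WT T3 replicate 5, which held the highest sum. Ighm, the immunoglobulin heavy chain of B cells, rose in both genotypes, at 3.02 ± 0.66 (adjusted p = 0.0103) and 2.88 ± 0.76 (adjusted p = 0.0411), the latter lost without 9 single libraries (p up to 0.139), and was lower in KO with T3, at -2.56 ± 0.56 (adjusted p = 0.00642). Igkc, the other tested marker of these cells, was not called, at 0.08 ± 0.58 (adjusted p = 0.965) in WT and -0.76 ± 0.73 (adjusted p = 0.754) in KO. The 7 B-cell and plasma-cell markers summed to 3.48 to 30.3 CPM in WT vehicle, 12.7 to 190.3 in WT T3, 1.39 to 4.06 in KO vehicle and 5.90 to 21.6 in KO T3. The 8 T-cell markers summed to 0.221 to 0.649, 0.0562 to 0.826, 0.174 to 2.85 and 0 to 0.304 CPM in the same order, and the 6 natural killer markers to at most 0.785 CPM. Of the T-cell markers Cd4 was at 0 outside WT vehicle, and of the natural killer markers Ncr1 outside KO T3. The 6 markers of plasmacytoid dendritic cells, the main source of type I interferon, summed to 1.29 to 5.72 CPM. Of the 6 neutrophil markers Ly6g was at 0 outside KO T3, where their sum reached 9.46 CPM. Erythroid markers summed to 43.9 to 70.0 CPM in WT vehicle and 78.2 to 333 CPM in WT T3, so the WT groups did not overlap, and to 33.4 to 982 CPM in KO vehicle and at most 298 CPM in KO T3. All 5 were positive with T3 in WT (median 1.64) and negative in KO (median -1.24, and 1.15 with all 5 positive without KO vehicle replicate 3). None was called in either by edgeR, DESeq2 or limma voom. Unadjusted, 3 in WT and 0 in KO had p below 0.05, against 17.2% and 13.6% of all genes. Fibroblast markers were positive for 7 of 7 genes in both genotypes, with medians of 0.52 and 0.47. None was called by edgeR or limma voom, and DESeq2 called 1 and 0. Unadjusted, 3 in WT and 2 in KO had p below 0.05, against 17.2% and 13.6% of all genes. The part of these cells in the T3 difference of the members was not tested.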

How the data were processed

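Gene counts of 22 poly-A RNA-seq libraries of soleus muscle were used as deposited. Per the labels' protocols, stranded mRNA libraries were sequenced as 51-base paired ends. Per the submitters' processing notes, STAR 2.7.3a, featureCounts 1.6.4, edgeR 3.26.8 and build mm10 were used, while the sources used here do not give annotation release or strand setting. The authors' gene length column gave levels per kilobase (RPKM). Of 55487 gene IDs 55394 matched a symbol. Genes were filtered with filterByExpr (minimum count 10), which kept at least 99.9% of each library's counts, scaled by TMM and fitted over all 4 groups in edgeR 4.0.16 (R 4.3.3), with 5 contrasts and Benjamini-Hochberg adjustment over all genes. CPM are counts over the scaled library size, and relative levels are log2(CPM + 0.1). The scripts were checked on simulated data. DESeq2 1.42.0, limma 3.58.1 (voom), other scalings, no filter and omitted libraries were the alternatives.

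The members and gene lists were chosen with earlier results of these data known. Values in every library are given for members called in any contrast and for the 2 most abundant per kilobase of each role class, other members are given by range and counts, and from the related lists up to 4 called genes with the smallest adjusted p are named, beside fixed ones such as Irf1 and Ifnar1, of which 1 is not reported here. Apol9a, Phf11d, Ifi204, Gbp4 and Iigp1 were named after their values were seen. Near-identical genes (Ifit3 and Ifit3b, Oas1, Gbp, Trim30 and Apol9 copies) can share reads.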

Additional observations from a re-analysis of the deposited data

Results flagged for a closer look

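In 25 of 160 groups of values (40 genes in 4 groups), the highest or lowest library lay far from the others by Dixon's test, which flags about 1 group in 20 by chance. WT T3 replicate 5 was the high library for 7 genes: Ifi27 (65.0 CPM), Ifi35 (36.9), Bst2 (26.9), Ifi27l2a (26.3), Isg15 (6.77), Ifi47 (5.69) and Zbp1 (1.27). KO T3 replicate 3 was high for 6: Ifit2 (17.6 CPM), Samd9l (16.6), Ifit3 (15.5), Oasl2 (10.2), Ifih1 (8.61) and Zbp1 (1.95).

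KO vehicle replicate 3 was high for Gbp7 (14.6 CPM) and Xaf1 (8.17), and KO vehicle replicate 1 was low for Ifit2 (5.24). Among the other T3 libraries, Xaf1 was high in KO T3 replicate 5 (10.4 CPM) and Ddx60 in WT T3 replicate 6 (1.98). In WT vehicle, replicate 2 was low for Ifit2 (4.65 CPM) and Mx2 (0.122) and high for Trim30a (4.24). Replicate 4 was high for Bst2 (7.79 CPM) and Ifi44 (1.32), replicate 3 for Samd9l (11.0) and replicate 5 for Ifi27 (32.0).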

How the results depend on the processing

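For T3 in WT, with 15 members called, 25 were called by DESeq2 in place of edgeR and 6 without the 5 T3 libraries that stood apart in earlier results (WT T3 replicates 1, 3 and 5, KO T3 replicates 2 and 3). Of all genes DESeq2 called 841 (5.8%) and the fit without the 5 libraries 446 (2.94%), against 499 in the main fit. Leaving out 1 library gave 5 members (without WT vehicle replicate 5) to 18 (without KO vehicle replicate 3 or KO T3 replicate 3). In these fits 2.09%, 3.37% and 3.53% of all genes were called. For T3 in KO, with 5 called, DESeq2 called 10, limma voom 2 and a fit of only the groups compared 2, and leaving out 1 library gave 0 to 9. Of all genes these runs called 664 (4.49%), 366 (2.43%) and 382 (2.63%), against 410 in the main fit. With 1 library left out the share was 1.07 to 4.64%. Without both KO vehicle replicate 3 and WT T3 replicate 5, chosen after seeing the data, 10 were called in KO and 19 in WT. In that fit 3.14% and 3.96% of all genes were called. For KO against WT under vehicle, leaving out 1 library gave 0 to 1 members and 1.38 to 5.25% of all genes. With T3 the single call, Ifi35, became 0 with total counts as the only scaling, only the groups compared, without the 5 T3 libraries or without both libraries, and leaving out 1 gave 0 to 1. Of all genes these runs called, in that order, 9.67%, 3.73%, 4.33% and 7.66%, and leaving out 1 library 4.4 to 7.66%. The causes were not tested. The difference between T3 responses had 0 calls in every alternative run, and only the groups compared does not apply to it. The 5 medians moved by less than the 0.246 SD between single libraries of a group. This SD is not the error of a difference between groups. Over all runs KO against WT ran from -0.07 to 0.26 under vehicle and from -0.23 to 0.04 with T3. The difference between T3 responses ran from -0.35 to -0.02. Of the 5 medians, 2 changed sign: KO against WT under vehicle went from 0.09 to -0.07 without KO vehicle replicate 3 (also without both libraries), and KO against WT with T3 from -0.12 to 0.04 with total counts only. No called result changed sign. No paired analysis was possible because the replicate numbers only follow the order of the records. Depth limits Oas3 and Mx1, which had too few counts to test.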
